A study of Rattus norvegicus with 16 samples.

Results

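The genes described here are the nuclear genes of respiratory complex I (NADH:ubiquinone oxidoreductase) and of its assembly, taken as every gene whose symbol starts with Nduf. Their RNA was measured on 16 Affymetrix expression arrays, in the wall of the right ventricle of male Wistar rats weighing 160 to 180 g. The array annotation pairs 55 probe sets with exactly 1 Nduf symbol, and the brightest probe set of each gene left 47 genes among the 17245 genes tested. By symbol, 10 of them are core genes (Ndufs, Ndufv), 30 accessory genes (Ndufa, Ndufb, Ndufc) and 7 assembly factors (Ndufaf). The symbols of 7 of the 47 mark pseudogenes (4) or extra copies of a gene (3), and these are counted both with and without the rest. Another 4 Nduf probe sets are shared by several symbols and were not used.

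The arrays fall into 5 RVF+, 4 RVF and 7 CON samples, which carry the sample numbers of their titles (RVF+ 8 to 12, RVF 13 to 16, CON 1 to 7). CON are controls. Per the series' title the study concerns failure of the right ventricle under a long-standing pressure load, and the labels' protocols name sham operation and banding of the pulmonary artery, a constriction against which the right ventricle must pump. They do not say which samples had which operation, what the plus sign stands for, how long the load lasted, or whether each sample is a separate animal. The p-values below therefore measure the spread between samples, which may be partly technical.

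Complex I is the entry point of NADH electrons into the respiratory chain. It passes them through a flavin and a row of iron-sulphur clusters in its matrix arm to ubiquinone, and pumps protons through its membrane arm. Its catalytic core is made of subunits encoded partly in the nucleus and partly in mitochondrial DNA, surrounded by accessory subunits that stabilise it, and dedicated assembly factors join the modules. The heart depends on it because its contraction runs mainly on oxidative metabolism. The mitochondrially encoded subunits were not analysed here.

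RNA of most complex I genes fell in RVF+ ventricles relative to controls. In RVF ventricles the differences were also negative, but how many were called depended on 1 array, RVF+ 8. With all arrays 29 genes were called lower in RVF+ and 8 in RVF. Without that array the counts were 26 and 27 (12.0% and 11.2% of all genes). In RVF+ against CON, 29 of the 47 genes fell and 0 rose (limma, adjusted p under 0.05 over all 17245 genes), where 13.6% of all genes tested were called lower and 14.1% higher. The median log2 difference of the 47 genes was -0.36, against -0.012 over all genes. Of the 47 differences 46 were negative, or 43 without RVF+ 8. At an unadjusted p under 0.05, 36 of the 47 passed, all of them lower, against 38.2% of all genes in either direction. In RVF against CON, 8 genes fell and 0 rose, against 8.29% of all genes called lower and 8.86% higher. The median difference was -0.24, against -0.0087 over all genes, and all 47 differences were negative, 21 of them at an unadjusted p under 0.05 (29.7% of all genes). Both comparisons use the same 7 CON arrays, so they are not independent of each other. Between RVF+ and RVF limma called 0 of the 47 genes in either direction, and 0 of all genes, of which 1242 had an unadjusted p under 0.05.

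One array stands apart. RVF+ 8 was the lowest of the 5 RVF+ arrays in 44 of the 47 genes, and averaged over them it lay 0.82 log2 units below the CON mean. The other RVF+ arrays lay 0.15 to 0.33 below it (mean deviations of -0.15, -0.33, -0.25 and -0.16 in RVF+ 9, 10, 11 and 12). RVF arrays lay at -0.28, -0.27, -0.20 and -0.24, and the CON arrays between -0.057 and 0.048. Over all genes its root mean square distance from the CON mean was 0.711, against 0.326 to 0.448 in the other RVF+ arrays, 0.358 to 0.417 in RVF arrays and 0.157 to 0.212 in CON arrays. No array of another group reached the CON range: every RVF+ and every RVF array lay below every CON array in this mean.

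Because all groups share 1 estimate of the spread per gene, RVF+ 8 bears on both comparisons with CON. The median residual SD of the 47 genes was 0.195 with it and 0.107 without it, while the median over all genes was 0.174 and 0.158. Without RVF+ 8, 26 genes fell in RVF+ (12.0% of all genes called lower), all of them among the 29, and the median difference was -0.26. In RVF the same 8 genes and 19 more fell, 27 in all (11.2% of all genes), with the median at -0.24, since RVF+ 8 is no RVF array. Of these 27 genes 24 were also called in RVF+ without RVF+ 8. The RVF count thus depends on whether this array enters the fit, while the RVF differences themselves do not change with it.

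**Figure D1:**
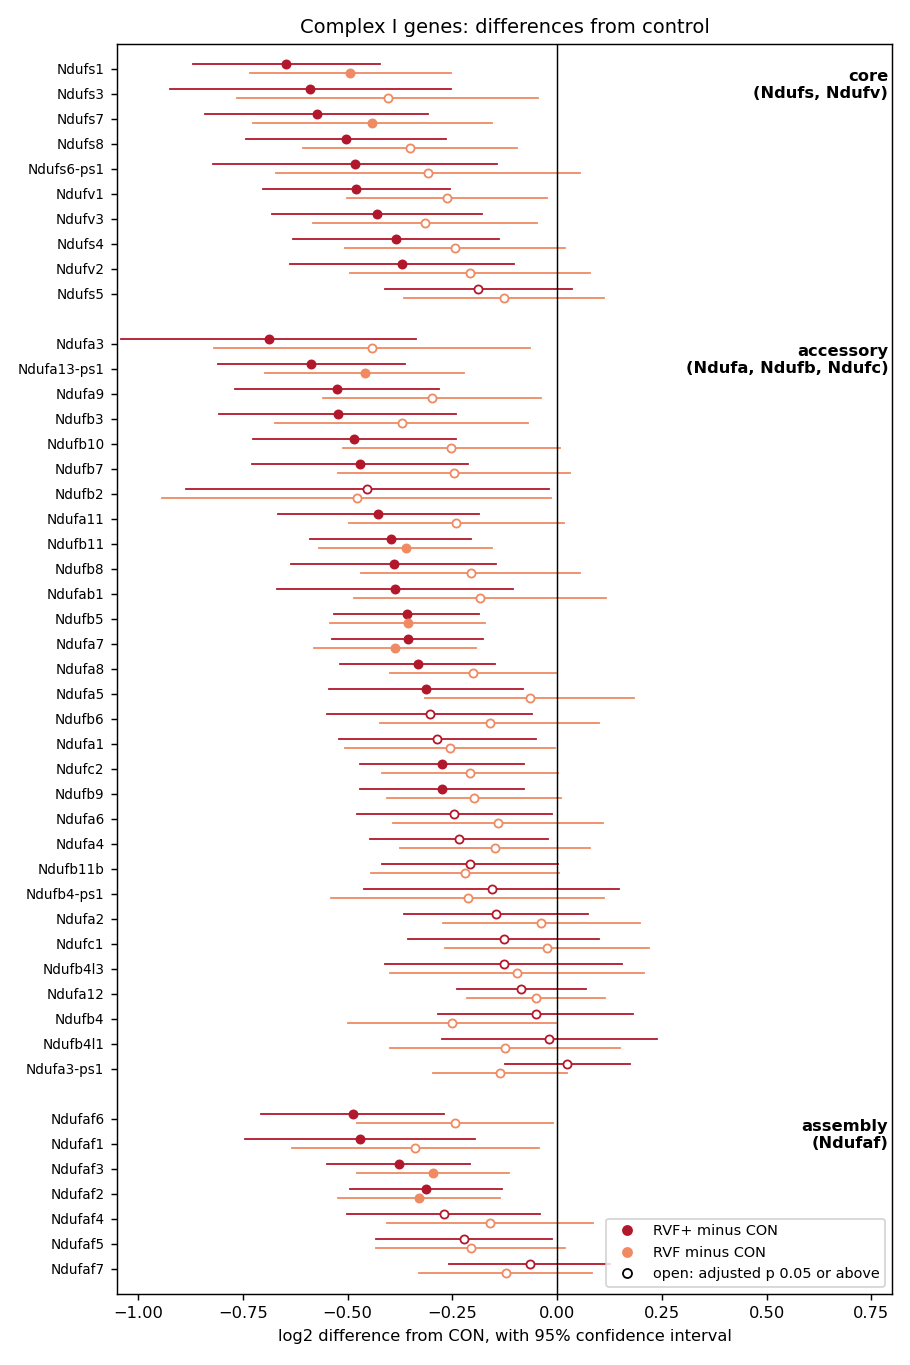
Log2 difference from CON of each of the 47 genes, by class, for RVF+ (dark red, n = 5) and RVF (orange, n = 4) against CON (n = 7). Points are limma estimates from all 16 arrays, lines their 95% confidence intervals, and open points did not pass the threshold; 46 of 47 RVF+ and all 47 RVF estimates lie left of 0.

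By class, 9 of 10 core genes, 16 of 30 accessory genes and 4 of 7 assembly factors fell in RVF+. Their median differences were -0.48, -0.31 and -0.31. Without RVF+ 8 the counts were 9, 13 and 4 and the medians -0.31, -0.18 and -0.27. In RVF, 2 core genes, 4 accessory genes and 2 assembly factors fell, with medians of -0.31, -0.21 and -0.24. The RVF counts were 9, 14 and 4 without RVF+ 8. Of all genes 13.6% were called lower in RVF+ and 8.29% in RVF, or 12.0% and 11.2% without RVF+ 8. Whether the classes differ from each other was not tested. Of the 7 pseudogenes and copies 2 fell in RVF+ and 1 in RVF, and among the other 40 genes 27 and 7 fell. With all arrays the RVF shares of accessory genes (13.3%) and of pseudogenes and copies (14.3%) were not far from the 8.29% of all genes.

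**Figure D2:**
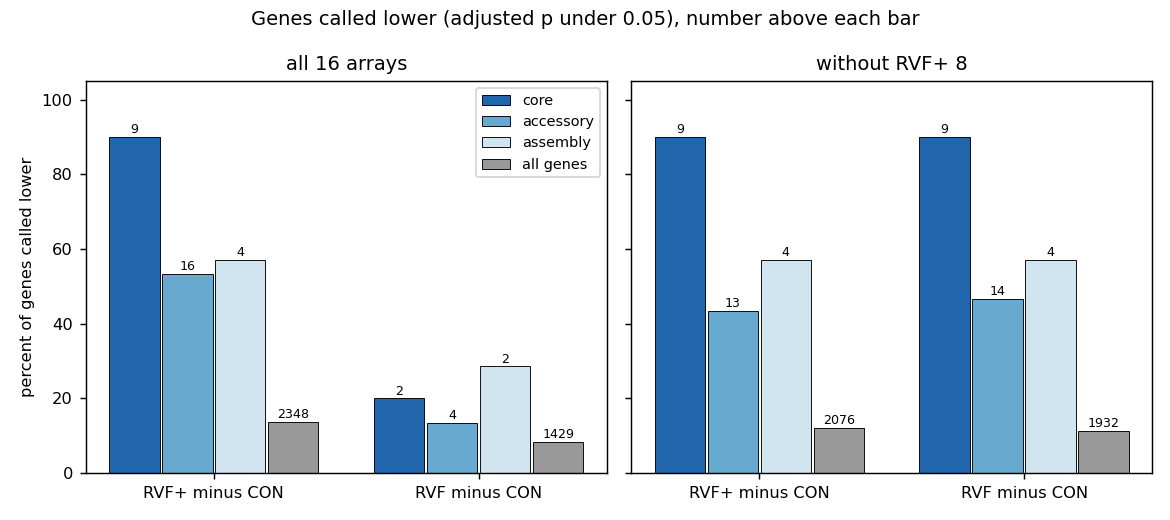
Percent of genes called lower (limma, adjusted p under 0.05) among core, accessory and assembly genes and among all 17245 genes, with all 16 arrays (left panel) and without RVF+ 8 (right panel). Numbers above the bars are genes; the core bar of RVF minus CON stands at 2 genes in the left panel and at 9 in the right, and the bars of all genes stay between 8.29% and 13.6%.

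**Figure D3:**
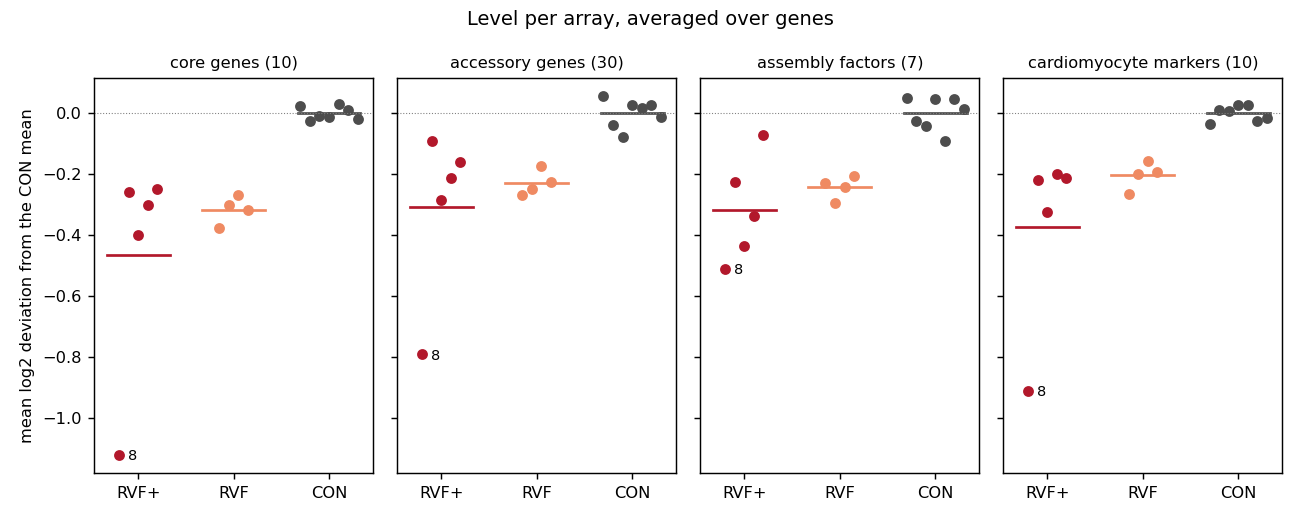
Mean log2 deviation from the CON mean of core, accessory and assembly genes and of 10 cardiomyocyte markers, 1 point per array, with group means as lines (RVF+ n = 5, RVF n = 4, CON n = 7). RVF+ 8 (marked 8) is the lowest array in all 4 panels, and in the assembly panel RVF+ 12, at -0.072, lies within the CON range of -0.090 to 0.050.

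Promoter sequences are shown for 4 of the genes to set beside these values the letters of motifs that regulators of mitochondrial genes are known to bind. RefSeq (assembly GRCr8) gave a window of 250 bases before to 50 after the start of transcription for 40 of the 47 genes, and both strands were searched. The motif CCGGAAG of ETS factors such as GABP occurred in 7 of the 40 windows (17.5%), against 12.1% of the 15500 windows of tested genes. AAGGTCA, bound by oestrogen-related receptors, occurred in 3 (7.5%, against 3.49%), GCGCA and GCGC with 1 base of any kind between them, a motif of NRF-1, in 8 (20%, against 6.75%), and AAGATGGC of YY1 in 7 (17.5%, against 4.01%). At least 1 of the 4 motifs was present in 21 of the 40 windows, and the same share over all tested windows was not computed. Genes called lower in RVF+ held them in 4 (ETS), 0 (oestrogen-related receptor), 3 (NRF-1) and 5 (YY1) of 24 windows, and uncalled genes in 3, 3, 5 and 2 of 16. A match describes these letters only, and its absence says nothing about the factor. For each motif the gene shown is the one holding it with the largest fall in RVF+, taken from called genes where there was one. Capitals mark the motif, which in Ndufs1 lies on the other strand and so reads as its reverse complement. The windows are chr9:72073556-72073855 (minus strand) for Ndufs1, chr1:74515509-74515808 (minus strand) for Ndufa3, chr20:9613536-9613835 (plus strand) for Ndufv3 and chr4:69334057-69334356 (plus strand) for Ndufb2.
Ndufs1: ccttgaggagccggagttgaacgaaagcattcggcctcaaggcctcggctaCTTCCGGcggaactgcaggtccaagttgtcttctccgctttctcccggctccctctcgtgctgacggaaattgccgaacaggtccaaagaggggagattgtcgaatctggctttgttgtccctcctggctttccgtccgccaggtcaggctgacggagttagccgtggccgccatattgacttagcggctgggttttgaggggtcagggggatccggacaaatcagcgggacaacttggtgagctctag
Ndufa3: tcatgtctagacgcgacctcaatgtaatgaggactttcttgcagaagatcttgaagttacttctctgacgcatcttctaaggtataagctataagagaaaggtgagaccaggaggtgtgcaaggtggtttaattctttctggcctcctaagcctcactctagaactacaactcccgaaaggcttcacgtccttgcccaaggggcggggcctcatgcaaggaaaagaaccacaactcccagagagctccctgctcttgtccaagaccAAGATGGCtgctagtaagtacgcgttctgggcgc
Ndufv3: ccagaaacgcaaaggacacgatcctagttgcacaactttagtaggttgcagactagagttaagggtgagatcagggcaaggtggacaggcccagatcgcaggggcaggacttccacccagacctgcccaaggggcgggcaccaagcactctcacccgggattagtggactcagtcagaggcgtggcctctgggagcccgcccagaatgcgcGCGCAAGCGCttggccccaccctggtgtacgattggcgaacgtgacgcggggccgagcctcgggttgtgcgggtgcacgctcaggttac
Ndufb2: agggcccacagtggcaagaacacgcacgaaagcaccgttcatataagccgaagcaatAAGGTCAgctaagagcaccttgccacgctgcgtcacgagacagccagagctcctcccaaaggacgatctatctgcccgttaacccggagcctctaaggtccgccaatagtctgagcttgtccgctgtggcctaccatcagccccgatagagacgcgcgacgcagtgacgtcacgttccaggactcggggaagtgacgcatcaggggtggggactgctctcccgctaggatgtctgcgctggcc
The ETS motif of Ndufs1 starts 199 bases before the start of transcription, and the NRF-1 motif of Ndufv3 39 bases before it. In Ndufa3 the YY1 motif starts 16 bases after the start, and in Ndufb2 the AAGGTCA motif lies 193 bases before it. Ndufb2 itself differed by -0.45 ± 0.21 in RVF+ and -0.48 ± 0.22 in RVF and passed in neither comparison (limma adjusted p = 0.113 and 0.154).

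The catalytic core genes lay lower than in controls in every RVF+ and every RVF array. Of the 7 nuclear genes of the catalytic core 6 were measured, and all 6 fell in RVF+, with a median difference of -0.54, or -0.36 without RVF+ 8. In RVF their median was -0.38, and 2 of the 6 fell, or all 6 without RVF+ 8. In each of the 6 genes every RVF+ array and every RVF array lay below every CON array. Over the 47 genes this held in 20 genes in RVF+, against 7.63% of all genes, and in 26 in RVF, against 9.00%. Values below are deposited intensities on a linear scale, which can be compared between samples of 1 gene but not between genes.

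Ndufs1 encodes the largest subunit of the NADH-oxidising module and carries several of its iron-sulphur clusters. Its intensity was 1066, 1591, 1485, 1826 and 1878 in RVF+ 8 to 12 and 1746, 1708, 1773 and 1623 in RVF 13 to 16, against a lowest, median and highest value of 2289.8, 2403 and 2509 in CON. All 9 arrays of the other groups were thus below the lowest control, with RVF+ 8 the lowest. The log2 difference was -0.65 ± 0.11 (SE) in RVF+ (1.56-fold lower, limma adjusted p = 0.000236) and -0.49 ± 0.11 in RVF (adjusted p = 0.00590). Without RVF+ 8 the RVF+ difference was -0.51 ± 0.07, close to that in RVF.

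The flavoprotein Ndufv1 binds NADH and the flavin that takes up its electrons. It measured 1249, 1997, 1734, 2027 and 2112 in RVF+ and 2210.3, 2016, 2159.7 and 1951 in RVF, against 2330.1, 2463 and 2779 (lowest, median, highest) in CON. The RVF+ arrays lay below all CON arrays and, apart from RVF+ 8 and RVF+ 10, within the RVF range. It fell by 0.48 ± 0.11 in RVF+ (limma adjusted p = 0.00254), and the RVF difference of -0.26 ± 0.11 did not pass (adjusted p = 0.125, or 0.0115 without RVF+ 8). Ndufv2, its iron-sulphur partner, measured 1481, 2749, 2675, 2694 and 2884 in RVF+ and 2444, 2828, 2726 and 2896 in RVF, against 2967, 3177 and 3289.8 in CON. Here 4 of the 5 RVF+ arrays sat together just under the controls and RVF+ 8 sat far below them. The difference was -0.37 ± 0.13 in RVF+ (adjusted p = 0.0373), or -0.19 ± 0.06 without RVF+ 8 (adjusted p = 0.0355), and the call ended without CON 1, 4, 5, 6 or 7 and in the fit of only the groups compared (adjusted p up to 0.0635 over all alternatives).

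The module that hands electrons to ubiquinone includes Ndufs3, Ndufs7 and Ndufs8. Ndufs7 holds the last iron-sulphur cluster before ubiquinone. Its intensity was 1177, 2308, 1851, 2033 and 2175 in RVF+ and 1768.5, 2168, 2259 and 1991 in RVF, against 2634, 2802 and 2898 in CON. Every RVF+ and RVF array was below the lowest control by a margin wider than the whole CON range. It differed by -0.57 ± 0.13 in RVF+ (limma adjusted p = 0.00250) and by -0.44 ± 0.14 in RVF (adjusted p = 0.0317). The RVF call was lost when CON 2, 5 or 6 or RVF 13, 14 or 16 was left out, with adjusted p up to 0.119, and stood at adjusted p = 0.000396 without RVF+ 8.

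Ndufs3, a scaffold of the same module, measured 379, 834, 742, 833 and 969 in RVF+ and 857, 784, 778 and 842 in RVF, against 1044, 1053 and 1157 in CON. RVF+ 8 was at less than the value of any other array, and the remaining RVF+ arrays spanned the RVF range. Its differences were -0.59 ± 0.16 in RVF+ (limma adjusted p = 0.0100) and -0.40 ± 0.17 in RVF (adjusted p = 0.117), and without RVF+ 8 they were -0.36 ± 0.07 and -0.40 ± 0.07 (adjusted p = 0.00122 and 0.000441). Ndufs8, which carries a pair of iron-sulphur clusters, measured 533, 941, 723, 808 and 938 in RVF+ and 885, 780.2, 910.1 and 867 in RVF, against 1028, 1074 and 1191 in CON. No RVF+ or RVF array reached the CON range. It fell by 0.50 ± 0.11 in RVF+ (adjusted p = 0.00285), and in RVF it differed by -0.35 ± 0.12 and missed the threshold (adjusted p = 0.0553, or 0.00391 without RVF+ 8).

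**Figure D4:**
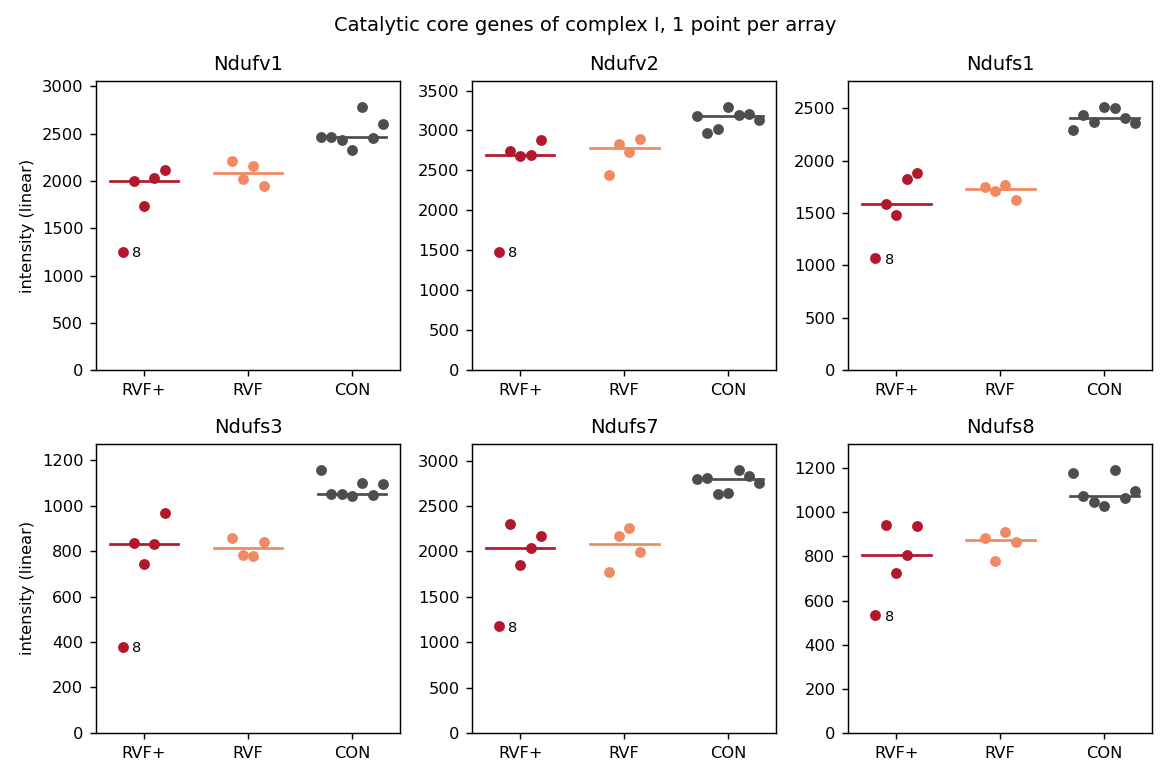
Deposited intensity (linear scale) of the 6 measured catalytic core genes, 1 point per array, with group medians as lines (RVF+ n = 5, RVF n = 4, CON n = 7). In every panel all RVF+ and RVF points lie below all CON points, and RVF+ 8 (marked 8) is the lowest.

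The other genes with core symbols encode supernumerary subunits. Ndufs4, whose loss in people causes Leigh syndrome, fell by 0.38 ± 0.12 in RVF+ (limma adjusted p = 0.0197). Ndufv3, a small subunit beside the flavoprotein, fell by 0.43 ± 0.12 (adjusted p = 0.0116), although its second, dimmer probe set showed -0.19. The probe set annotated to the pseudogene Ndufs6-ps1 fell by 0.48 ± 0.16 (adjusted p = 0.0327). Ndufs5, a membrane-arm subunit, was the core-symbol gene that did not pass, with -0.19 ± 0.11 (adjusted p = 0.206) and similar values at its other probe sets (-0.19 and -0.20). Without RVF+ 8 Ndufs4, Ndufv3 and Ndufs6-ps1 were still called, at -0.23, -0.27 and -0.26. In RVF these 4 genes differed by -0.13 to -0.31 and none passed in the fit with all arrays.

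Among accessory subunits the largest fall in RVF+ was that of Ndufa3, a small membrane subunit near the junction of the arms. It measured 329, 877, 615, 579.9 and 583 in RVF+ and 528, 715, 797 and 693 in RVF, against 799, 921 and 997 in CON. RVF+ 9 lay inside the CON range, the other RVF+ arrays and all RVF arrays below it. The difference was -0.69 ± 0.17 in RVF+ (limma adjusted p = 0.00495) and -0.44 ± 0.18 in RVF (adjusted p = 0.102, or 0.0113 without RVF+ 8).

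Ndufa9, which sits near the ubiquinone site and helps hold the arms together, measured 1151, 1856, 1656, 1971 and 2177 in RVF+ and 2077, 2019, 2012 and 1959 in RVF, against 2241, 2466 and 2674 in CON. The 4 RVF arrays were close together and just under the lowest control, while the RVF+ arrays were spread more widely. It fell by 0.53 ± 0.12 in RVF+ (limma adjusted p = 0.00245) and differed by -0.30 ± 0.12 in RVF (adjusted p = 0.110, or 0.00714 without RVF+ 8). Ndufb3, a membrane-arm subunit, measured 398, 787, 717, 814 and 775 in RVF+ and 715, 751, 741 and 806 in RVF, against 924, 965 and 1036 in CON. Apart from RVF+ 8, both groups covered nearly the same range. Its differences were -0.52 ± 0.13 in RVF+ (adjusted p = 0.00691, and -0.33 ± 0.06 without RVF+ 8) and -0.37 ± 0.14 in RVF (adjusted p = 0.0866, or 0.000321 without RVF+ 8).

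The probe sets annotated to Ndufa13-ps1, a pseudogene of the membrane-arm subunit gene Ndufa13, were among the most reduced. The brightest measured 188, 313, 247, 273 and 300.3 in RVF+ and 294, 266, 298 and 281 in RVF, against 339, 394 and 433 in CON. No RVF+ or RVF array reached the lowest control. It fell by 0.59 ± 0.11 in RVF+ (limma adjusted p = 0.000502) and by 0.46 ± 0.11 in RVF (adjusted p = 0.00901), and its other 2 probe sets showed -0.58 and -0.59 in RVF+ and -0.43 and -0.44 in RVF. Probe sets of pseudogenes may also read RNA of the parent gene, so the transcript behind these values is uncertain.

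Ndufa7, Ndufb5 and Ndufb11 were called in both comparisons, with differences of like size. Ndufa7, an accessory subunit of the matrix arm, measured 224, 315, 341, 305 and 299.7 in RVF+ and 288, 280.0, 300.3 and 284 in RVF, against 363, 370.4 and 419 in CON. RVF 13, 14 and 16 lay below 4 of the 5 RVF+ arrays, and both groups lay below all controls. It fell by 0.36 ± 0.09 in RVF+ (limma adjusted p = 0.00448) and by 0.39 ± 0.09 in RVF (adjusted p = 0.00692).

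Ndufb5, of the membrane arm, measured 1675, 2359.5, 2117, 2265 and 2422 in RVF+ and 2195, 1931, 2272 and 2231 in RVF, against 2695, 2742 and 2859.7 in CON. The gap to the controls was again wider than the CON range. It fell by 0.36 ± 0.08 in RVF+ and 0.36 ± 0.09 in RVF (limma adjusted p = 0.00337 and 0.00947). Ndufb11, an X-linked membrane-arm subunit in mammals, measured 784, 1259, 1029, 1167 and 1108 in RVF+ and 1005, 1102, 1141 and 1087 in RVF, against 1318, 1404 and 1419 in CON. The arrays of both groups were below all controls. It fell by 0.40 ± 0.09 in RVF+ (adjusted p = 0.00340) and by 0.36 ± 0.10 in RVF (adjusted p = 0.0162, but 0.0630 without RVF 13).

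Some accessory genes hardly differed. Ndufa12, a matrix-arm subunit, measured 373, 468, 495, 471 and 485 in RVF+ and 481, 453, 444 and 494 in RVF, against 455, 487 and 521 in CON. All groups overlapped, and 4 of the 5 RVF+ arrays lay inside the CON range. Its differences were -0.09 ± 0.07 in RVF+ and -0.05 ± 0.08 in RVF (limma adjusted p = 0.423 and 0.718), and its 95% confidence intervals reached down to -0.24 and -0.22. Without RVF+ 8 the RVF+ difference was -0.013. Ndufc1 of the membrane arm measured 324, 514, 499, 493 and 527 in RVF+ and 432, 556, 477 and 542 in RVF, against 477, 506 and 564 in CON. RVF+ 8 and RVF 13 were the arrays clearly below the controls. It differed by -0.13 ± 0.11 in RVF+, or 0.0018 without RVF+ 8, and by -0.02 ± 0.12 in RVF.

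Ndufa2, a matrix-arm subunit with a thioredoxin-like fold, measured 266, 459, 377, 390.4 and 391 in RVF+ and 388, 377, 404 and 434 in RVF, against 386, 394 and 469.7 in CON. Most arrays of both groups lay in the CON range. Its differences were -0.15 ± 0.10 in RVF+ and -0.04 ± 0.11 in RVF, neither past the threshold, and the RVF+ value was -0.027 without RVF+ 8. The smallest RVF+ differences belonged to Ndufa3-ps1 (0.02 ± 0.07), Ndufb4l1 (-0.02 ± 0.12) and Ndufb4 (-0.05 ± 0.11). These 3 were dim, below the median level of all genes, as were 4 other members (Ndufb4l3, Ndufb11b, Ndufaf2 and Ndufaf5). The authors' normalization can compress differences of dim probe sets, but whether it did so here was not tested. The dim Ndufaf2 was called in both comparisons with CON. Ndufa3-ps1 was the 1 gene of the 47 with a positive RVF+ difference with all arrays. Without RVF+ 8 Ndufb4-ps1, Ndufb4l1 and Ndufc1 were positive too, by 0.010, 0.021 and 0.0018.

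The products of Ndufa4 and Ndufab1 have roles outside complex I. Ndufa4, now counted as a subunit of complex IV, measured 2369, 3521, 3198, 3696 and 4126 in RVF+ and 3697, 3492, 3474 and 3454 in RVF, against 3663, 3941 and 4089 in CON. RVF+ 12 exceeded every control, while 3 RVF+ and 3 RVF arrays lay below all controls. It differed by -0.23 ± 0.10 in RVF+ and -0.15 ± 0.11 in RVF and passed in neither (limma adjusted p = 0.0942 and 0.391). Single arrays decided the RVF+ value, which was -0.11 without RVF+ 8 and -0.31 without RVF+ 12, where it passed (adjusted p = 0.0233). Ndufab1, the mitochondrial acyl carrier protein, measured 657, 1372, 1215, 1201 and 1264 in RVF+ and 1138, 1331, 1334 and 1303 in RVF, against 1375, 1454 and 1509 in CON. RVF+ 9 and the upper RVF arrays came close to the lowest control without reaching it. It fell by 0.39 ± 0.13 in RVF+ (adjusted p = 0.0380), with -0.20 ± 0.07 without RVF+ 8 (adjusted p = 0.0349), and differed by -0.18 ± 0.14 in RVF.

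The remaining accessory genes called in RVF+ differed by -0.27 (Ndufb9) to -0.48 (Ndufb10). They were Ndufa5, Ndufa8 and Ndufa11 and Ndufb7, Ndufb8, Ndufb9, Ndufb10 and Ndufc2, which lie in the matrix arm (Ndufa5) or in and on the membrane arm. Without RVF+ 8 Ndufb9 and Ndufc2, both at -0.17, and Ndufa5 were no longer called (adjusted p = 0.0810, 0.0825 and 0.0806), and Ndufa11 and Ndufb8 were called at -0.28 and -0.26, against -0.43 and -0.39 with it. Of the measured genes, 11 of 14 genes listed for the matrix arm and 11 of 17 listed for the membrane arm fell in RVF+, with medians of -0.41 and -0.36. In RVF 3 and 2 fell, with medians of -0.28 and -0.25, or 10 and 10 without RVF+ 8. Over all genes the shares called lower were 13.6% in RVF+ and 8.29% in RVF, or 12.0% and 11.2% without RVF+ 8. The RVF share of the membrane arm with all arrays, 11.8%, was thus near that of all genes. Whether the arms differ was not tested.

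Assembly factors help to join the modules and are not part of the finished complex. Ndufaf6, needed to build the ubiquinone module, measured 43.1, 68.2, 65.8, 62.8 and 66.3 in RVF+ and 73.8, 74.2, 69.3 and 69.3 in RVF, against 73.2, 85.0 and 96.7 in CON. The RVF+ arrays were below all RVF and all CON arrays, and this was the 1 gene of the 47 with all RVF+ arrays below all RVF arrays (1.15% of all genes). In it 2 of the 4 RVF arrays overlapped the controls. It fell by 0.49 ± 0.10 in RVF+ (limma adjusted p = 0.00188) and differed by -0.24 ± 0.11 in RVF (adjusted p = 0.151, or 0.0235 without RVF+ 8). Ndufaf1, of the complex that builds the membrane arm, measured 99.3, 127, 127, 147 and 194 in RVF+ and 156, 138, 147 and 154 in RVF, against 162, 192 and 239 in CON. RVF+ 12 lay within the CON range and the other arrays below it. The differences were -0.47 ± 0.13 in RVF+ (adjusted p = 0.0118) and -0.34 ± 0.14 in RVF (adjusted p = 0.109).

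Ndufaf3, which acts with Ndufaf4 on the ubiquinone module, measured 62.6, 84.3, 71.1, 76.6 and 83.1 in RVF+ and 76.6, 77.9, 82.4 and 81.3 in RVF, against 87.3, 99.7 and 109 in CON. All 9 arrays were below all controls. It fell by 0.38 ± 0.08 in RVF+ and 0.30 ± 0.09 in RVF (limma adjusted p = 0.00193 and 0.0245), and the RVF call was lost without RVF 13 or RVF 14 (adjusted p up to 0.0754). Ndufaf2, a late assembly factor related in sequence to Ndufa12, measured 32.4, 40.2, 37.8, 36.0 and 42.3 in RVF+ and 34.3, 38.7, 37.3 and 38.6 in RVF, against 40.8, 45.2 and 54.7 in CON. RVF+ 12 was the 1 array of both groups to reach the CON range. It fell by 0.31 ± 0.09 in RVF+ and 0.33 ± 0.09 in RVF (adjusted p = 0.0111 and 0.0195), and without RVF 13 the RVF call was lost (adjusted p = 0.0768). Ndufaf4, Ndufaf5, which modifies Ndufs7, and the methyltransferase Ndufaf7 differed by -0.27, -0.22 and -0.07 in RVF+ and by -0.16, -0.21 and -0.12 in RVF, and passed in neither.

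In the direct comparison of RVF+ with RVF the median difference of the 47 genes was -0.11 with all arrays and 0.028 without RVF+ 8. At an unadjusted p under 0.05 0 of the 47 genes passed, against 7.20% of all genes. The 5 genes with the smallest p were Ndufaf6 (-0.25 ± 0.12), Ndufa3-ps1 (0.16 ± 0.08), Ndufa5 (-0.25 ± 0.13), Ndufv1 (-0.22 ± 0.12) and Ndufb10 (-0.23 ± 0.13), with limma adjusted p-values of 0.694 to 0.761. Without RVF+ 8 their differences were -0.12, 0.19, -0.10, -0.085 and -0.088. For Ndufaf6 the 95% confidence interval of the difference ran from -0.50 to 0.0051. Ndufa5, a matrix-arm subunit, measured 255, 398, 385, 432 and 467 in RVF+ and 463, 445, 448 and 447 in RVF, against 443, 467 and 506 in CON. Its RVF arrays all lay inside the CON range and 4 of 5 RVF+ arrays below it. RVF+ 12, however, lay above all RVF arrays. The RVF+ call against CON (-0.31 ± 0.11, adjusted p = 0.0424) was lost without RVF+ 8 (-0.17 ± 0.07, adjusted p = 0.0806). Ndufb10, a membrane-arm subunit, measured 946, 1816, 1457, 1401 and 1570.1 in RVF+ and 1593, 1707, 1754 and 1559 in RVF, against 1790.3, 1986 and 2089.6 in CON. RVF+ 9 reached the CON range and all other arrays stayed below it. These intervals leave room for differences between RVF+ and RVF in either direction.

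Spread among replicates was itself uneven. The median SD of the 47 genes was 0.311 log2 units over the 5 RVF+ arrays, 0.128 over the 4 without RVF+ 8, 0.0817 over RVF and 0.0868 over CON.

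Further assembly factors of complex I carry other symbols. Of 13 measured assembly factors without an Nduf symbol, 8 fell in RVF+ and 2 in RVF, against 13.6% and 8.29% of all genes. Without RVF+ 8 the counts were 7 and 4 (12.0% and 11.2% of all genes). Ecsit, of the complex that assembles the membrane arm, fell by 0.73 ± 0.15 in RVF+ (limma adjusted p = 0.00175). Foxred1, an assembly oxidoreductase, fell by 0.56 ± 0.10 (adjusted p = 0.000691). Tmem126a and Tmem70, membrane proteins of assembly, fell in both groups, by 0.64 ± 0.16 and 0.57 ± 0.13 in RVF+ and by 0.57 ± 0.17 and 0.43 ± 0.14 in RVF. Aifm1, Dmac1, Dmac2 and Tmem186 were the others called in RVF+, Dmac1 not without RVF+ 8 (adjusted p = 0.0694). Acad9, Timmdc1, Tmem126b, Nubpl and Chchd4 did not pass in either comparison, with Acad9 at -0.05 ± 0.11 in RVF+ and 0.29 ± 0.12 in RVF.

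For the other respiratory complexes the counts stand beside 13.6% of all genes called lower in RVF+ and 8.29% in RVF. All 4 complex II genes fell in RVF+ and 2 in RVF (medians of -0.53 and -0.33). For complex III 4 of 9 genes fell in RVF+ and 0 in RVF (medians -0.25 and -0.18, with 3 of 9 at an unadjusted p under 0.05 in RVF and 4 called without RVF+ 8). For complex IV it was 6 of 12 and 1 (medians -0.29 and -0.22), so that the RVF shares of complexes III and IV were no higher than about that of all genes. For ATP synthase it was 13 of 15 and 3 (medians -0.38 and -0.26). Without RVF+ 8 the counts for complexes II, III and IV and ATP synthase were 4, 4, 5 and 11 in RVF+ and 3, 4, 6 and 11 in RVF, and the RVF+ medians were -0.39, -0.13, -0.17 and -0.27. Sdha, the flavoprotein of complex II, fell by 0.64 ± 0.13 in RVF+, and Cyc1, the cytochrome of complex III, by 0.60 ± 0.12.

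Of 11 measured regulators of mitochondrial genes 8 fell and 1 rose in RVF+, against 13.6% and 14.1% of all genes. In RVF 1 of the 11 fell, a share near the 8.29% of all genes, or 6 without RVF+ 8 (11.2% of all genes). Perm1, a muscle regulator of oxidative metabolism, differed by -1.15 ± 0.23 in RVF+ (limma adjusted p = 0.00113) and -0.60 ± 0.25 in RVF (adjusted p = 0.106). Ppargc1b, a coactivator, and Esrrg, an oestrogen-related receptor, fell by 0.87 ± 0.16 and 0.62 ± 0.11 in RVF+. Tfam, which packages and transcribes mitochondrial DNA, fell by 0.33 ± 0.07 in RVF+ and 0.29 ± 0.08 in RVF. Nrf1 rose by 0.24 ± 0.08 in RVF+ (adjusted p = 0.0298, or 0.0768 without RVF+ 8), and Yy1 differed by -0.09 ± 0.07.

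**Figure D5:**
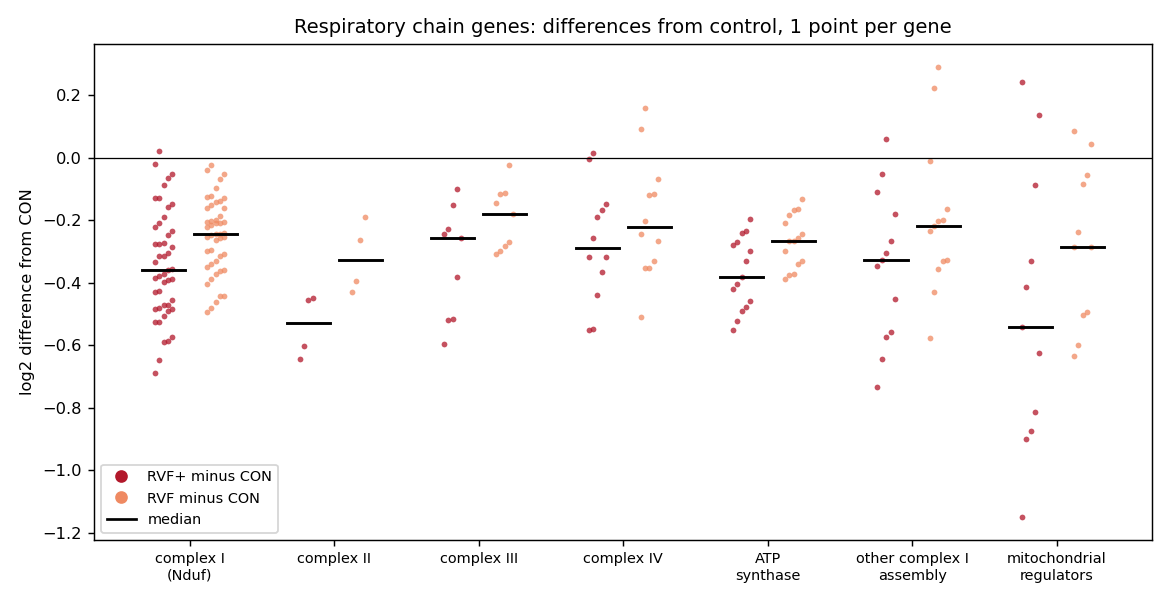
Log2 difference from CON of each gene of complex I (Nduf symbols), complexes II to IV, ATP synthase, the other complex I assembly factors and the regulators, 1 point per gene, for RVF+ (dark red) and RVF (orange), with medians as black lines. The medians of all 7 lists lie below 0 in both comparisons, from -0.25 to -0.54 in RVF+ and from -0.18 to -0.33 in RVF.

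Markers of some cell types also differed. Their counts stand beside 13.6% of all genes called lower and 14.1% higher in RVF+, and 8.29% lower and 8.86% higher in RVF. The 10 cardiomyocyte markers had a lowest intensity of 561 over all arrays. The median gene stood at 47.6, but intensities cannot be compared between genes, so this is only a rough check. Of these 10, 5 fell in RVF+ and 0 in RVF, or 5 and 3 without RVF+ 8 (12.0% and 11.2% of all genes). In RVF 2 of the 10 had an unadjusted p under 0.05. The median difference of the 10 markers was -0.28 in RVF+ (-0.15 without RVF+ 8) and -0.12 in RVF. Single markers ranged from -1.34 to -0.05 in RVF+ and from -0.78 to -0.06 in RVF, so the largest falls weigh on the average. Averaged over the list, their deviations from the CON mean were -0.91, -0.22, -0.32, -0.20 and -0.21 in RVF+ 8 to 12 and -0.27, -0.20, -0.15 and -0.19 in RVF 13 to 16, against -0.035 to 0.029 in CON. RVF+ 8 was therefore lowest for these markers as it was for the core genes, at -1.12. Macrophage markers rose in 10 of 10 genes in RVF+ and 7 of 10 in RVF. Their deviations were 0.73 to 2.08 in RVF+, with RVF+ 8 the highest, and 0.51 to 1.01 in RVF, against -0.21 to 0.31 in CON. Fibroblast markers rose in 7 of 9 and 6 of 9 genes, with deviations of 0.39 to 1.05 in RVF+ and 0.57 to 0.76 in RVF, against -0.10 to 0.16 in CON. Red cell markers rose in 3 of 3 genes in RVF+ and 0 of 3 in RVF (also 0 at an unadjusted p under 0.05). Smooth muscle and pericyte markers rose in 3 of 6 and 2 of 6 genes. Of 5 adipocyte and 4 lymphocyte markers 0 were called in either comparison with all arrays. Without RVF+ 8, 1 lymphocyte marker was called lower in RVF+, and in RVF 1 was called lower and 1 higher. Endothelial markers rose in 1 of 6 genes in RVF+ and 0 of 6 in RVF. Skeletal muscle markers rose in 2 of 3 and 1 of 3 genes. Without RVF+ 8 the counts called higher in RVF+ and RVF were 10 and 9 for macrophage markers and 7 and 7 for fibroblast markers. They were 2 and 0 for endothelial markers and 2 and 2 for smooth muscle and pericyte markers. Of all genes 12.9% and 13.4% were then called higher. Of 3 measured atrial markers 1 was called higher and 0 lower in RVF+, while 1 was called higher and 2 lower in RVF. In RVF+ 2 of the 3 differences were also negative, and all 3 had an unadjusted limma p under 0.05. The median differences were -1.49 in RVF+ and -1.86 in RVF, and 0 of the 3 were called between RVF+ and RVF. None of these markers can read 0 on this array scale. The part of these shifts in the complex I differences was not tested, and in whole tissue fewer cells of a type and less RNA per cell cannot be told apart.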

How the data were processed

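RNA of 16 right ventricular wall samples was labelled as cDNA (500 ng of total RNA, ribosomal RNA not depleted) and hybridised to 1 array each, per the labels' protocols. The authors deposited 1 intensity per probe set, made with RMA (robust multi-array average, which corrects background, normalizes quantiles and summarises probes) per the submitters' processing notes. Which program and annotation release were used, and which genome build, is not given in the sources used here. The deposited intensity values were linear, from 2.202 to 10294, with array medians of 27.1 to 29.3, and were converted to log2 here. The number of arrays limits the precision, and RMA can compress differences of dim probe sets.

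Of 29214 probe sets, 18644 had exactly 1 symbol in the array annotation, 962 several, and 9608 were not listed. Against RefSeq's gene table (GRCr8) 18460 identifiers matched, with 0 symbols updated. The probe set with the highest mean was taken for each gene, which gave 17245 genes, and no dim genes were removed. No array was a copy of another (at most 0.00342% of values identical in a pair).

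The 3 group means were fitted in 1 model with limma 3.58.1 (lmFit, eBayes, R 4.3.3), with 13 residual and 4.45 prior degrees of freedom. Adjusted p-values are limma's, two-sided, and Benjamini-Hochberg adjusted over all 17245 genes in each of 3 comparisons, with a threshold of 0.05. Errors beside differences are standard errors. No p-value was computed over the complex I genes as a list.

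Values per sample are given for 27 genes: the catalytic core, the 4 called genes with the largest difference in each class for RVF+ and for RVF against CON, the 5 with the smallest p in RVF+ minus RVF, the 3 with the smallest difference in each comparison with CON, and Ndufa4 and Ndufab1. For the dim Ndufa3-ps1, Ndufb4 and Ndufb4l1 only the differences are printed. The members, the lists of other genes and the tests were chosen with earlier results of these data known. Alternatives were quantile normalization, median centring, a filter on dim genes, averaging each gene's probe sets, only the compared groups, trend and robust moderation (statmod 1.5.0), array weights, and leaving out each array in turn. A further pair was chosen after seeing the data: leaving out pseudogenes and copies, and fitting only the compared groups without RVF+ 8. The fitting procedure was tested on simulated data with 1 spread per gene in all groups and no outlying array. That test cannot show how the fit behaves with an array such as RVF+ 8. Promoter windows came from RefSeq, assembly GRCr8.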

Additional observations from a re-analysis of the deposited data

Results flagged for a closer look

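Values were examined in 93 sets of 1 group each (27 genes in 3 groups, and the mean levels of gene classes). In 15 of them an array lay far from the others by Dixon's criterion. This is the gap to the nearest array divided by the range of the group, both in log2 units, while intensities printed beside it are linear. Chance gives about 1 in 20 for a single set. The 93 sets share arrays, and the class means share genes, so their count cannot be compared with that rate. RVF+ 8 was the array in 10 of the 15, each time the lowest. Its gap took up 0.887 of the RVF+ range for Ndufv2 (1481, with the next array at 2675), 0.863 for Ndufc1, 0.823 for Ndufb3, 0.819 for both Ndufaf6 and Ndufab1, 0.801 for Ndufa12 and 0.717 for Ndufs3. For mean levels it was 0.825 for the core genes, 0.725 for the accessory genes and 0.726 for all 47 genes. On the same array the cardiomyocyte markers were lowest (-0.91) and the macrophage markers highest (2.08). Their part in the low values was not tested.

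The other 5 were scattered over arrays. RVF 13 was high for Ndufa4 (0.838 of the RVF range) and low for Ndufab1 (0.851). RVF+ 9 was high for the dim copy Ndufb4l1 (0.764). CON 4 was high for Ndufa7 (0.738), and CON 6 was low for Ndufb11 (0.636).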

How the results depend on the processing

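In RVF+ against CON the count of complex I genes called lower was 23 to 32 over the alternatives and 24 to 31 with each array left out, against 29. The assembly count of 4 became 2 in the fit of the compared groups without RVF+ 8. In RVF against CON the counts depended on which arrays set the spread. The 8 genes called became 28 with only the compared groups (9 core, 15 accessory and 4 assembly genes, 4466 of all genes) and 26 with array weights, which gave RVF+ 8 the lowest weight of 0.174 (8, 14 and 4, with 4688 of all genes). The filter on dim genes left 1 assembly gene. Leaving out each array gave 4 to 27 genes, with the lowest count without RVF 13 and the highest without RVF+ 8, and 1 to 9 core, 3 to 14 accessory and 0 to 4 assembly genes. The median difference stayed between -0.27 and -0.23 in RVF over all of these. In RVF+ against RVF 0 complex I genes were called in any alternative, and 0 to 3 of all genes with each array left out (3 without RVF+ 12).

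Of the 644 values of the 27 named genes in RVF+ against CON, 32 lost the call and 1 gained it, and of 617 in RVF against CON 10 lost and 38 gained it, with 0 called values changing sign. Ndufa5 lost its RVF+ call in 16 of 24 settings. No paired analysis was possible because the sample numbers are not shared between groups. No detection calls were used, so values of dim genes such as Ndufb4 may hold mostly background.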
